A study of Mus musculus with 4 samples.

Results

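Collagen chains are the genes described here. They were taken as every gene name in the 4 deposited tables of the form Col, a type number, the letter a and a chain number, which gave 43 of 23337 gene names. The tables are labelled as liver macrophages sorted from reporter mice that carry Lyz2cre and RosaYFP, aged 6 to 8 weeks and of both sexes. In such mice Cre made from the lysozyme gene Lyz2, which myeloid cells use, turns on a yellow fluorescent protein gene (YFP) placed at Rosa. The 2 YFP+ libraries are of cells that made Cre or descend from a cell that did, and the 2 YFP- libraries are of cells from the same kind of mouse without the reporter signal. Titles start with M for 1 library per group and with FM for the other. The labels do not explain these starts, which serve below only as names. What was gated besides YFP is not stated in the labels. Whether the 2 libraries of a group come from different mice is not stated either, and p-values measure only the spread between these samples, which may be technical.

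Collagens are extracellular matrix proteins whose chains wind around each other into a long helix before they leave the cell. Fibrillar chains, of which Col1a1, Col1a2 and Col3a1 are the best known, build the rope-like fibrils of connective tissue. Basement membrane chains build or decorate the thin sheets under endothelium and epithelium: Col4a1 and Col4a2 assemble together into the type IV network, while Col15a1 and Col18a1 carry a cleavable end fragment that has been studied for its effect on vessels. In liver the main sources of fibrillar collagen are stellate cells and fibroblasts, and vessel walls make type IV collagen. Macrophages are better known for taking up and breaking down collagen than for making it.

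Before the collagen values, the marker lists say what the libraries held. The summed level of 10 Kupffer cell genes (Kupffer cells are the resident macrophages of liver) was 33223 and 29754 TPM in the YFP+ and 5787 and 13901 TPM in the YFP- libraries. TPM is a level per transcript length that sums to 1000000 in each library. Of the 10 genes, 7 lay higher in YFP+ without overlap, as did 2.5% of all genes tested below. Emr1, C6 and Cdh5 overlapped between groups, with Emr1 at 1861 TPM in YFP- FM and 572 TPM in YFP+ FM. The summed level of 9 microglia genes, from the macrophages of brain, was 1006 and 74.7 TPM in YFP+ against 17388 and 16077 TPM in YFP-, so genes of brain macrophages stood high in the 2 libraries labelled as YFP- liver macrophages. Genes of brain endothelium and the oligodendrocyte lineage stood high there as well, with oligodendrocyte lineage sums of 740 and 848 TPM in YFP- against 106 and 27.1 TPM in YFP+ libraries. The choroid plexus list was nearly all Ttr, at 1053 and 830 TPM in YFP- M and FM. Its other members were at 1.62 to 9.98 TPM in YFP- libraries. The microglia, brain endothelium and oligodendrocyte lineage values go against the labelled tissue, and the origin of the YFP- libraries is in doubt. Every difference below is between the libraries so labelled. At least 1 TPM was reached by 7386 to 12829 genes per library, lowest in YFP+ FM. No read counts are in the tables, so depth in reads is unknown. Mean read coverage at 1 TPM was 3.24 in YFP+ M, 5.44 in YFP- M, 2.10 in YFP+ FM and 1.12 in YFP- FM.

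The comparison asked whether collagen transcripts differ between YFP+ and YFP- cells. All chains together summed to 13.1 TPM in YFP+ M and 6.20 in YFP+ FM, against 119.8 in YFP- M and 149.7 in YFP- FM. The group means were 9.64 ± 4.87 and 134.8 ± 21.2 TPM (SD, n = 2 each). The sum was thus 9.16-fold lower in YFP+ between the M libraries and 24.1-fold lower between the FM libraries. Of the 43 chains, 30 had both YFP+ values below both YFP- values, 0 had the reverse and 13 overlapped. The same held for 52.9% of all 23337 gene names, and for 79.7% of the genes tested below, so a lower level was common well beyond collagens.

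Genes that reached 1 TPM in 2 or more libraries were tested on log2(TPM + 1) with limma, with p-values adjusted over 12251 genes by the Benjamini-Hochberg method and a threshold of 0.05. Fold changes are YFP+ minus YFP- on that scale, where changes of low genes come out too small, and errors are limma's standard errors. Of the 43 chains 11 could be tested, and 10 of them fell: Col4a1, Col4a2, Col15a1, Col18a1, Col27a1, Col1a2, Col3a1, Col6a3, Col9a3 and Col14a1. Of all tested genes 39.5% were called lower and 0.522% higher in YFP+, and 0 chains were called higher. Of the tested chains 7 (Col14a1, Col15a1, Col18a1, Col1a2, Col3a1, Col6a3 and Col9a3) reached 1 TPM only in YFP- libraries, so they could enter the test only by being lower in YFP+. The median change of the 11 chains was -2.02, beside -1.73 for all tested genes, so most of the fall of a typical chain was shared with the whole table. Changes are therefore also given relative to -1.73. With 2 libraries a group, the smallest p an exact permutation test (two-sided) can give is 0.333, and the calls rest on limma's pooled variance.

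**Figure D1:**
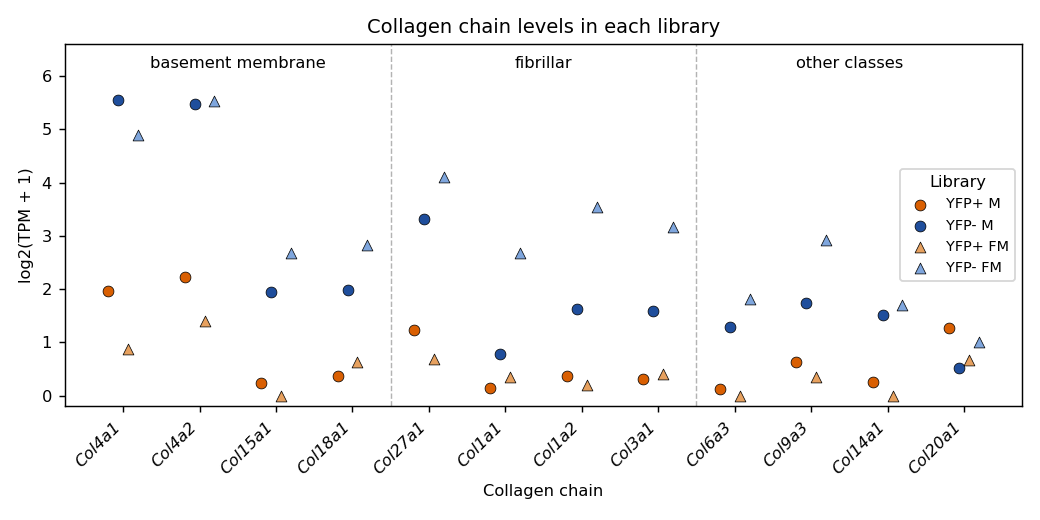
Level of the 11 tested chains and of Col1a1, which could not be tested, in each library as log2(TPM + 1), with YFP+ in orange, YFP- in blue, M as circles and FM as triangles. Both YFP+ points lie below both YFP- points for each chain shown except Col20a1. For the 7 chains that reached 1 TPM only in YFP- libraries the filter fixed this order. Col4a1 and Col4a2 are the highest pair in each of the 4 libraries, down to 0.842 and 1.64 TPM in YFP+ FM.

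Sequences upstream of start sites were available from RefSeq (GRCm38.p6) for 35 of the 43 chains, of which 8 are among the 10 that fell. The 250 bases before the start are shown for the 4 of these whose window holds no annotated exon (GENCODE M21). For Col3a1, Col15a1 and Col6a3 the filter fixed the lower level in YFP+, so their calls support nothing. The 4 windows stand for basement membrane, fibrillar and beaded filament chains. Each is written 5′ to 3′ on the strand of the gene, and capitals mark any of the 3 words searched on both strands. These were TATAAA, the core of a TATA box, then CCAAT, the core of a CCAAT box, and lastly GGGCGG, the core of a GC box. No matches overlap in the windows shown. Col3a1 lies on the plus strand (chr1:45311288-45311537), Col27a1 on the plus strand (chr4:63215162-63215411), Col15a1 on the plus strand (chr4:47207762-47208011) and Col6a3 on the minus strand (chr1:90843972-90844221).
Col3a1: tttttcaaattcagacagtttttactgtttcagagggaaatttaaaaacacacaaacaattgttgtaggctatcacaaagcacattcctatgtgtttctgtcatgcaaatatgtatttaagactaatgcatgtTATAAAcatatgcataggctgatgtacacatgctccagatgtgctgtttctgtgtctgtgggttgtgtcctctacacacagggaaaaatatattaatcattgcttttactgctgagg
Col27a1: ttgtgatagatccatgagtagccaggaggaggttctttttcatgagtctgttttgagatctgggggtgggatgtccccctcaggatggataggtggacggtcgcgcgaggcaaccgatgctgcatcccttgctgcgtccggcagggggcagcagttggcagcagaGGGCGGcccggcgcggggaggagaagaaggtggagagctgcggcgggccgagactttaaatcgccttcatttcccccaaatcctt
Col15a1: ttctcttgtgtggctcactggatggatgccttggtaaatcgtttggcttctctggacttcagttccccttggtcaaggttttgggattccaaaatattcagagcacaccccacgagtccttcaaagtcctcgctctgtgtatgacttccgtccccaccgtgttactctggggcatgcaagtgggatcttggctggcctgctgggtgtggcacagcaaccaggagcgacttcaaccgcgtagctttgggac
Col6a3: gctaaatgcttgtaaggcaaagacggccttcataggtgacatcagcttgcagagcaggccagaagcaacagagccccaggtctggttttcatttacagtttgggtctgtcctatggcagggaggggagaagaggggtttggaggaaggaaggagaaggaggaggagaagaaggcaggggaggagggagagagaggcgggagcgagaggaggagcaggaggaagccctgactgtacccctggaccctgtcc
The Col3a1 window, 35.2% G or C, holds 1 TATAAA that begins 117 bases before the start, and the Col27a1 window, 59.6% G or C, holds 1 GGGCGG that begins 85 bases before it. None of the 3 words was found in the windows of Col15a1 and Col6a3. Over the 38 windows of the 35 chains, TATAAA was present in 13.2%, CCAAT in 34.2% and GGGCGG in 57.9%. Over all 32851 windows of the same length the shares were 12.4%, 33.8% and 32.7%. None of the 3 words was thus present in all 4 windows shown.

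Among basement membrane chains, Col4a1 and Col4a2 carried most of the signal. Col4a1, on chromosome 8 (11198423 to 11312826 in the deposited GRCm38 tables, minus strand), stood at 2.91 TPM in YFP+ M and 0.842 in YFP+ FM, against 46.1 in YFP- M and 28.8 in YFP- FM. Col4a2, on chromosome 8 (11312829 to 11449287, plus strand), stood at 3.69 and 1.64 against 43.4 and 45.4 TPM in the same order. Neither chain overlapped between the groups, and the YFP+ M library was above the YFP+ FM library for both. Col4a1 fell by 3.80 (SE 1.14, adjusted p = 0.00605 by limma), which is 2.07 beyond the median of all genes. Col4a2 fell by 3.69 (SE 1.14, adjusted p = 0.00788), or 1.96 beyond that median. The coverage behind these levels was 9.44 and 1.77 reads per base for Col4a1 in the YFP+ M and FM libraries and 251 and 32.3 in the YFP- M and FM libraries.

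The genes of this type IV pair lie head to head, with start sites 3 bp apart in the tables. The level of Col4a1 divided by that of Col4a2 was 0.789 in YFP+ M, 1.06 in YFP- M, 0.512 in YFP+ FM and 0.634 in YFP- FM. Protein of this type holds more of the Col4a1 than of the Col4a2 chain, and in 3 of the 4 libraries the Col4a1 transcript was the lower of the pair. The other type IV chains, which serve basement membranes of kidney and other epithelia, form 2 further head-to-head pairs: Col4a3 and Col4a4, with starts 72 bp apart, and Col4a5 and Col4a6, with starts 1343 bp apart. These 4 chains were at 0.0157 to 0.242 TPM in YFP- and at 0 to 0.0181 TPM in YFP+ libraries, and none could be tested. Type IV expression in these samples was thus almost wholly Col4a1 and Col4a2.

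Col15a1 and Col18a1, the vessel-associated chains with a cleavable end, were low. Both reached 1 TPM only in YFP- libraries, so they could be tested only by being lower in YFP+. Their separation and calls thus support nothing. Col15a1 (chromosome 4, 47208012 to 47313165) stood at 0.188 TPM in YFP+ M and was listed at 0 in YFP+ FM, against 2.84 and 5.41 TPM in YFP- M and FM. Col18a1 (chromosome 10, 77052179 to 77166530) stood at 0.287 and 0.558 against 2.97 and 6.13 TPM. Both were highest in YFP- FM and had no overlap between groups. Col15a1 fell by 2.19 (SE 0.46, adjusted p = 0.000243). Col18a1 fell by 1.91 (SE 0.56, adjusted p = 0.00475). These falls are 0.46 and 0.18 beyond the median of all genes. In sum, the 8 basement membrane chains gave 7.09 and 3.04 TPM in YFP+ M and FM against 95.6 and 86.2 TPM in YFP- M and FM.

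Genes of vessel cells moved with these chains. The summed level of 12 general endothelial genes was 118 and 51.5 TPM in YFP+ against 1494 and 1474 TPM in YFP- libraries. Of 11 tested, 11 fell, where 39.5% of all tested genes fell, including Cldn5, a tight junction protein (-5.28), and Flt1, a receptor for vascular growth factor (-4.86). The endothelial cadherin Cdh5, counted here in the Kupffer cell list, did not pass (-0.05, limma adjusted p = 0.964). The 8 brain endothelium genes summed to 137 and 27.5 against 2427 and 1577 TPM, and all 8 fell, led by Ly6c1 (-4.94) and the thyroid hormone carrier Slco1c1 (-5.28). For 9 liver sinusoidal endothelium genes the sums were 347 and 203 against 920 and 1126 TPM, and 3 of 9 tested fell. Rescaling left fewer calls, given here for quantile normalization, median-ratio scaling and loess. The lower calls were 5, 8 and 1 for general endothelium, 6, 8 and 3 for brain endothelium, and 0 for sinusoidal endothelium. Of all tested genes 1.67%, 5.9% and 0.327% were called lower in the same order. Under median-ratio scaling 1 sinusoidal endothelium gene was called higher. The YFP- group was thus higher in all 3 lists, and the part of these cells in the collagen difference was not tested. In bulk samples fewer cells of a type and less RNA per cell cannot be told apart.

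Fibrillar chains were lower in YFP+ as well, and the most abundant was Col27a1, a fibrillar chain known from cartilage. Col27a1 (chromosome 4, 63215412 to 63334990) stood at 1.35 TPM in YFP+ M and 0.609 in YFP+ FM, against 8.91 in YFP- M and 16.3 in YFP- FM. It fell by 2.75 (SE 0.94, adjusted p = 0.0153), or 1.02 beyond the median of all genes, with no overlap between groups. Col27a1 made up 46.2%, 59.7%, 30.1% and 37.4% of the summed fibrillar level in YFP+ M, YFP- M, YFP+ FM and YFP- FM. Its share was larger in the M than in the FM library of each group.

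The classical fibril chains were highest in the YFP- FM library. Col1a2 (chromosome 6, 4505697 to 4541543), a chain of type I collagen, stood at 0.289 TPM in YFP+ M and 0.151 in YFP+ FM, against 2.11 in YFP- M and 10.6 in YFP- FM. Col3a1 (chromosome 1, 45311538 to 45349706), the type III chain of soft tissues, stood at 0.240 and 0.322 against 2.00 and 8.02 TPM. Col1a1 (chromosome 11, 94936270 to 94951856), the other type I chain, stood at 0.104 and 0.277 against 0.730 and 5.42 TPM and could not be tested, since it reached 1 TPM in 1 library. All 3 separated the groups without overlap, but the YFP- libraries were themselves far apart. Col1a2 and Col3a1 reached 1 TPM only in YFP- libraries, so their separation and calls support nothing. Col1a2 fell by 2.30 (SE 0.55, adjusted p = 0.000633) and Col3a1 by 2.02 (SE 0.52, adjusted p = 0.00144), which is 0.57 and 0.29 beyond the median of all genes. Without Col27a1, the fibrillar chains summed to 6.03 TPM in YFP- M and 27.3 TPM in YFP- FM, and to 1.57 and 1.41 TPM in YFP+ M and FM. The level of Col1a1 divided by that of Col1a2 was 0.359, 0.347, 1.84 and 0.510 in YFP+ M, YFP- M, YFP+ FM and YFP- FM, from values under 1 TPM in both YFP+ libraries.

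The other fibrillar chains were near the lower limit. Col5a2, a type V chain that co-assembles into type I fibrils and whose gene neighbours Col3a1 on chromosome 1, stood at 0.129 and 0.0387 TPM in YFP+ M and FM against 0.813 and 1.28 TPM in YFP- M and FM. Its partner Col5a1 did not exceed 0.126 TPM in any library. Col11a1 was listed at 0 in all 4 libraries, and Col2a1 and Col24a1 were above 0 only in YFP- M. Of the 11 fibrillar chains 3 were tested and 3 fell, beside 39.5% of all tested genes.

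Markers of the cells that make fibrils were low beside those of vessels. The counts of members that fell stand beside 39.5% of all tested genes. The 9 fibroblast genes summed to 3.86 and 2.29 TPM in YFP+ M and FM against 14.5 and 25.4 TPM in YFP- M and FM, and 2 of 3 tested fell. The list was led by Dcn (10.0 and 12.3 TPM in YFP- M and FM) and Pi16 (1.46 and 8.81 TPM), while Pdgfra did not exceed 0.819 TPM nor Lum 0.580 TPM. The 11 pericyte and smooth muscle genes summed to 18.9 and 17.0 against 140 and 204 TPM, and 7 of 8 tested fell, among them Myh11, smooth muscle myosin (-2.60), and Rgs5 (-3.02). The 9 hepatic stellate cell genes summed to 98.5 and 67.2 against 53.0 and 86.7 TPM and overlapped between groups, with 2 of 4 tested lower. That sum was mostly Ecm1 (35.6 to 93.8 TPM), while Lrat, which stores vitamin A in stellate cells, did not exceed 1.17 TPM. Under quantile normalization, median-ratio scaling and loess the lower calls were 1, 4 and 1 for the pericyte list. They were 0 for the fibroblast and stellate lists. Of all tested genes 1.67%, 5.9% and 0.327% were called lower in the same order. Ecm1 was called higher under median-ratio scaling (2.90, limma adjusted p = 0.00869). Of the members that fell, 4 of the 7 pericyte genes, 1 of the 2 fibroblast genes and 1 of the 2 stellate genes were under 1 TPM in both YFP+ libraries. The part of these cells in the fibrillar difference was not tested.

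**Figure D2:**
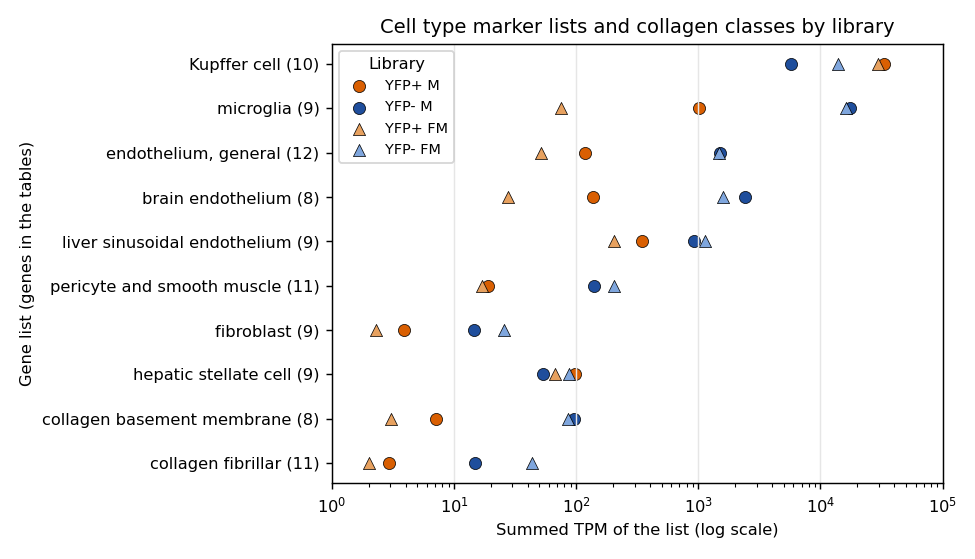
Summed TPM (log axis) of cell type marker lists and of the 2 collagen classes, 1 point per library, with the number of genes in the tables in parentheses. Both collagen classes, the vessel lists and the microglia list are higher in the YFP- libraries, the Kupffer cell list is higher in the YFP+ libraries, and the stellate cell list overlaps.

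Basement membrane chains made up a larger part of all collagen than fibrillar chains in every library. Their share of the summed chain level was 54.2% in YFP+ M, 79.8% in YFP- M, 49.1% in YFP+ FM and 57.6% in YFP- FM, while fibrillar chains took 22.3%, 12.5%, 32.6% and 29.1%. The ratio of the sums was 2.43, 6.40, 1.504 and 1.98 in the same order, so YFP- M stood apart from the others. The basement membrane sum was 13.5-fold lower in YFP+ between the M and 28.3-fold lower between the FM libraries, and the fibrillar sum 5.12-fold and 21.6-fold lower. The median change was -2.94 over the 4 tested basement membrane chains and -2.30 over the 3 tested fibrillar chains, a difference of -0.63. Of these chains Col15a1, Col18a1, Col1a2 and Col3a1 passed the filter only through YFP-, so the medians are a description of few and selected chains. The difference was -1.19 within the M and -0.0087 within the FM libraries, and it turned to 0.14 without YFP- M. These medians give no stable order of the classes.

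**Figure D3:**
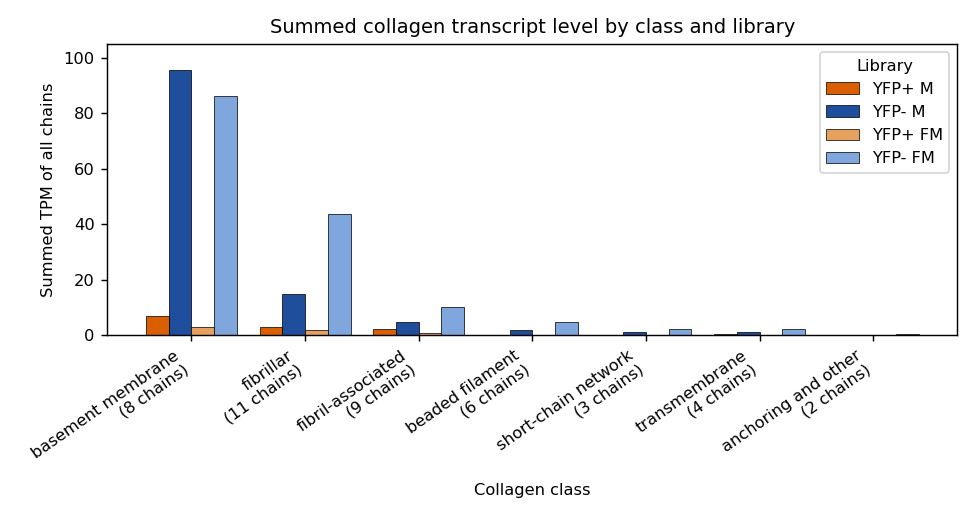
Summed TPM of all chains of each collagen class in each library, as bars from 0, without error bars since each bar is 1 library. Basement membrane chains lead in every library (7.09, 95.6, 3.04 and 86.2 TPM in YFP+ M, YFP- M, YFP+ FM and YFP- FM), and the fibrillar bar of YFP- FM (43.6 TPM) is above that of YFP- M (14.9 TPM).

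Chains of other classes did not exceed 6.56 TPM in any library, and 3 of the 4 tested fell, beside 39.5% of all tested genes. Col9a3, a chain of type IX collagen that sits on fibril surfaces, stood at 0.553 TPM in YFP+ M and 0.276 in YFP+ FM, against 2.33 in YFP- M and 6.56 in YFP- FM (-1.83, SE 0.54, adjusted p = 0.00500). Its type IX partners Col9a1 and Col9a2 did not exceed 0.117 TPM. Col14a1, a fibril-associated chain of fibroblasts, stood at 0.189 TPM in YFP+ M and was listed at 0 in YFP+ FM, against 1.87 and 2.27 TPM in YFP- M and FM (-1.49, SE 0.35, adjusted p = 0.000544). Col6a3, a chain of the beaded filaments around cells, stood at 0.0868 TPM and was listed at 0, against 1.44 and 2.53 TPM in the same order (-1.49, SE 0.33, adjusted p = 0.000313). All 3 reached 1 TPM only in YFP- libraries, so the filter fixed their separation, and their calls support nothing. The changes of Col14a1 and Col6a3 lay 0.24 above the median change of all genes. The type VI chains that assemble with Col6a3, Col6a1 and Col6a2, reached 1.45 and 0.774 TPM, both in YFP- FM.

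Col20a1, a fibril-associated chain, was the tested chain that did not fall. It stood at 1.41 TPM in YFP+ M and 0.596 in YFP+ FM, against 0.443 in YFP- M and 1.02 in YFP- FM. The groups overlapped, with YFP+ higher between the M libraries and lower between the FM libraries (0.20, SE 0.35, adjusted p = 0.625). Relative to the median of all genes its change was 1.93.

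Of the 32 chains that were not tested, 4 (Col11a1, Col19a1, Col22a1 and Col6a4) were listed at 0 in every library. The other 28 ranged up to 0.578 TPM in YFP+ and up to 5.42 TPM in YFP- libraries. Of these, 20 were lower in YFP+ without overlap, as were 52.9% of all 23337 gene names. Some were separated only by values near 0, such as Col4a4, listed at 0 in both YFP+ libraries against 0.0157 and 0.0343 TPM in YFP- M and FM. The network chains Col8a1 and Col8a2, found in vessel walls and the eye, were at most 0.0453 TPM in YFP+ and 0.505 to 1.22 TPM in YFP- libraries. Col13a1, Col17a1, Col23a1 and Col25a1, which cross the cell membrane, reached 0.312 TPM in YFP+ and 0.894 TPM in YFP- libraries. The number of chains listed at 0 was 17 in YFP+ M, 5 in YFP- M, 26 in YFP+ FM and 9 in YFP- FM. A listed 0 can be a failed estimate and does not show that the transcript was absent.

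Rescaling ended most of the calls. Quantile normalization and cyclic loess each called 0 of the 11 chains lower, where 1.67% and 0.327% of all genes were called lower. Median-ratio scaling called Col4a1 (-1.96, adjusted p = 0.0353) and Col15a1 (-1.30, adjusted p = 0.0219), where 5.90% of all genes were called lower. The median of all genes moved from -1.73 to -0.03 under quantile normalization, -0.0088 under loess and -0.08 under median-ratio scaling. All 10 chains that fell kept their negative sign under the 3 settings. For 7 of them this supports nothing, since they could be tested only by being lower in YFP+. Under quantile normalization Col18a1 (-0.063) and Col9a3 (-0.096) lay close to the median of all genes. The largest falls were in Col4a1 (-1.80 and -1.61 under quantile normalization and loess) and Col4a2 (-1.71 and -1.55). Col20a1 turned to a call above 0 under quantile normalization (1.60, adjusted p = 0.0342) and median-ratio scaling (1.20, adjusted p = 0.0401), but not under loess (1.49, adjusted p = 0.0504).

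**Figure D4:**
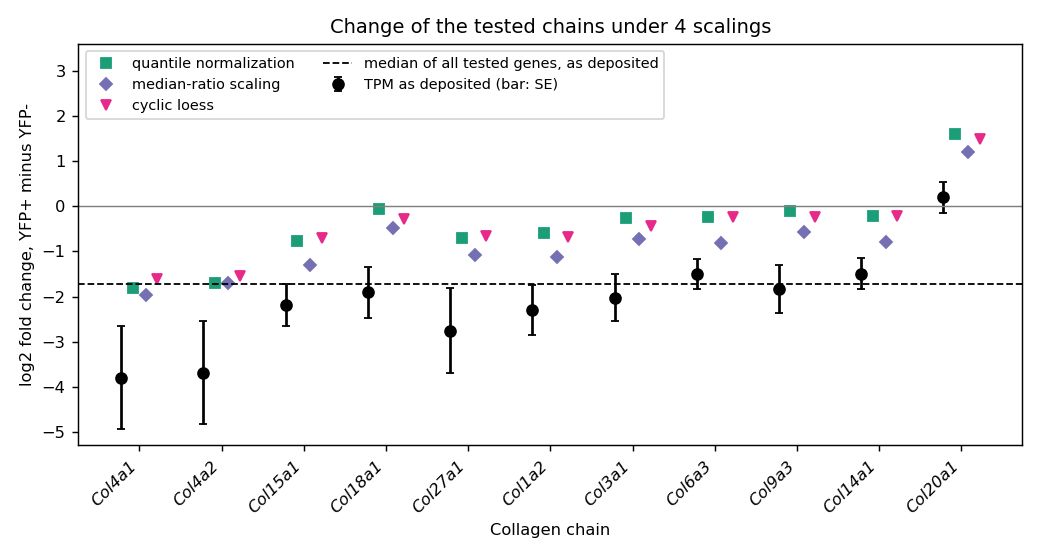
log2 fold change (YFP+ minus YFP-) of the 11 tested chains on the deposited TPM, with limma's standard error, and under 3 rescalings. On the deposited values the 10 chains that fell lie around or below the dashed median of all tested genes (-1.73), and after rescaling Col4a1 and Col4a2 lie lowest, between -1.55 and -1.96.

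Calls also changed when 1 library was left out, which leaves 1 library in a group. Each p-value then assumes that the lone library varies like the other group. Without YFP- FM 4 chains remained called (Col14a1, Col15a1, Col1a2 and Col6a3), and the limma adjusted p was 0.300 for Col4a1, 0.387 for Col4a2, 0.169 for Col18a1, 0.404 for Col27a1, 0.107 for Col3a1 and 0.214 for Col9a3. Without YFP- M, Col4a1 (0.260), Col4a2 (0.252) and Col27a1 (0.197) no longer passed, and without YFP+ FM, Col14a1 (0.0660), Col27a1 (0.0639) and Col9a3 (0.0774) did not. Without YFP+ M all 10 passed. The changes themselves stayed of like size for the type IV chains: Col4a1 was at -4.13 without YFP- FM and -3.47 without YFP- M, and Col4a2 at -3.65 and -3.72. Col27a1 was at -2.35 without YFP- FM and -3.16 without YFP- M. Without YFP- FM the changes of Col18a1 (-1.49), Col3a1 (-1.23) and Col9a3 (-1.24) were smaller than with it. Col14a1, Col15a1, Col1a2 and Col6a3 are among the 7 chains that reached 1 TPM only in YFP- libraries. The filter was set on all 4 libraries before any was left out, so the calls of these 7 chains here support nothing.

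The pathway lists are read against the 39.5% of all tested genes that fell. In each of them, some members that fell were under 1 TPM in both YFP+ libraries, so, as for the 7 chains, they could be tested only by being lower there, and their counts support nothing.

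Genes that modify or fold chains summed to 774 to 2527 TPM per library, mostly through those that serve secreted proteins in general. Of 19 genes that modify or fold chains 17 were tested, and 9 fell and 0 rose (median change -2.09 beside -1.73 for all genes), with 5 of the 9 under 1 TPM in both YFP+ libraries. Those furthest past the threshold were Glt25d2, a collagen galactosyltransferase (-2.15), Fkbp14, a collagen chaperone (-2.09), Leprel1, a prolyl 3-hydroxylase (-3.93), and Fkbp10, a chaperone of procollagen (-1.27), and each of them is among those 5. Leprel1 stood at 0.859 and 0.127 TPM in YFP+ M and FM against 17.4 and 25.4 TPM in YFP- M and FM, and it was the 1 gene of the list called under quantile normalization (-2.11, adjusted p = 0.0340). Median-ratio scaling called Leprel1 and Glt25d2, and loess called 0. Serpinh1, the collagen-specific chaperone, stood at 1.56 and 1.01 against 6.93 and 20.0 TPM (-2.51, adjusted p = 0.0314). Of the abundant members, P4hb and Ppib were at 260 to 998 and 328 to 588 TPM and did not pass (adjusted p = 0.301 and 0.789).

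Of 13 genes that trim or crosslink collagen outside the cell 5 were tested, and 1 fell and 0 rose (median -2.16). Bmp1, the protease that removes the end propeptide of fibrillar chains, stood at 0.198 and 0.0320 TPM in YFP+ M and FM against 5.53 and 9.50 TPM in YFP- M and FM (-2.90, adjusted p = 0.000248). Of the rescalings, median-ratio scaling alone called Bmp1 lower (-1.82, adjusted p = 0.00732). Pcolce2, which enhances that cleavage, went the other way, at 220 and 83.8 TPM in YFP+ M and FM against 20.4 and 47.3 TPM in YFP- M and FM. The groups did not overlap, where 2.5% of all tested genes lay higher in YFP+ without overlap. Pcolce2 did not pass on the deposited values (2.09, adjusted p = 0.0730) but was called higher under quantile normalization (3.49, adjusted p = 0.0323), median-ratio scaling (4.33, adjusted p = 0.00280) and loess (3.38, adjusted p = 0.0464). Its paralog Pcolce did not pass (-2.16, adjusted p = 0.0689), nor did the crosslinking enzyme Loxl3 (-2.27, adjusted p = 0.0827). Lox itself stayed under 1 TPM in every library.

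Partners of type IV collagen in the basement membrane were lower in YFP+ too. Of 19 genes 11 were tested, and 10 fell and 0 rose (median -2.45), with 6 of the 10 under 1 TPM in both YFP+ libraries. Sparc, a collagen-binding protein that many cell types secrete, dominated the list at 256 and 46.4 TPM in YFP+ M and FM against 4086 and 3061 TPM in YFP- M and FM (-5.00, adjusted p = 2.76e-07). The laminin chains Lama5 (-2.45), Lamb1 (-1.60) and Lama4 (-2.38), which form the other sheet of the basement membrane, also fell, and are among those 6. Sparc was the 1 gene of the list called under quantile normalization and under loess. Under median-ratio scaling Sparc was not called (-2.71, adjusted p = 0.0877), and 5 others were: Lama4, Lama5, Lamb2, Lamc1 and Nid1.

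Among 14 partners of fibrils 6 were tested, and 4 fell and 0 rose (median -2.23), with Eln alone among the 4 under 1 TPM in both YFP+ libraries. They were elastin, Eln (-1.85), fibronectin, Fn1, Postn (-2.19) and Thbs1 (-2.99), and none was called under quantile normalization or loess, while median-ratio scaling called Fn1 (-1.84, adjusted p = 0.0401). Fn1 stood at 8.11 and 4.22 TPM in YFP+ M and FM against 84.2 and 142.5 TPM in YFP- M and FM. The proteoglycan Dcn, which coats fibrils, did not pass (-2.12, adjusted p = 0.0746).

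Of 12 collagen receptors 6 were tested, and 4 fell and 0 rose (median -2.30): Gpr56, a receptor that binds type III collagen (-5.86), Mrc2, an uptake receptor for collagen (-2.15), Itga1 (-2.49) and Itgb1 (-2.46), the chains of a collagen-binding integrin. Of 12 genes of collagen breakdown 9 were tested, and 6 fell and 0 rose (median -2.55), led by the inhibitors Timp4 (-2.55) and Timp3 (-4.12) and the proteases Mmp15 (-3.02) and Mmp2 (-3.71). Timp3, which binds to matrix, stood at 1.81 and 0.261 TPM in YFP+ M and FM against 34.7 and 29.0 TPM in YFP- M and FM. Among those that fell, 2 receptors (Mrc2 and Itga1) and 2 breakdown genes (Timp4 and Mmp15) were under 1 TPM in both YFP+ libraries. Under quantile normalization 1 receptor (Gpr56) and 1 breakdown gene (Timp3) were called, under median-ratio scaling 3 and 4, and under loess 1 (Gpr56) and 0.

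Proteins that carry a collagen-like stretch without being collagens differed among themselves. Of 17 such genes 11 were tested, and 3 fell and 5 rose (median -0.27). The scavenger receptor Marco (3.79), the lectin Fcna (2.96) and the complement genes C1qa, C1qb and C1qc rose, while Scara3 (-1.21), Colec10 (-1.16) and Colec11 (-1.11) fell, each of the last 3 from under 1 TPM in both YFP+ libraries. None of the 11 was called under quantile normalization or loess, and median-ratio scaling called Marco (6.09, adjusted p = 0.0102) and Msr1 (1.99, adjusted p = 0.0383) higher. The C1q genes turned to negative values under loess (-0.15 to -0.28) and were at 3.76 to 3.78 under median-ratio scaling, with no call. The 17 genes summed to 47063 and 66800 TPM in YFP+ against 18184 and 16613 TPM in YFP- libraries, the opposite order to that of the collagen chains.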

How the data were processed

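Total RNA of 4 libraries was sequenced. The authors deposited 1 gene table per library with mean read coverage, FPKM and TPM, per the file headers. TPM, a level per transcript length scaled to 1000000 per library by the authors, was the measure tested. The deposited coverage signal served as a measure of depth, and the deposited FPKM (fragments per kilobase and depth) as an alternative. The submitters' processing notes name HISAT, with no version, and 2 builds, mm10 and GRCm38; how reads were assigned to genes and strands is not stated in the labels.

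Groups came from the genotype label. Rows of 1 name were summed (166 of 23337 names). The 12251 genes that reached 1 TPM in 2 or more libraries entered limma (version 3.58.1, under R 4.3.3) on the log2(TPM + 1) scale, with empirical Bayes moderation and a mean trend. The test was checked on simulated data with large changes in genes above the median level. That check does not cover smaller changes, low genes or a shift of all genes, so it does not vouch for the chain calls. The trend took full weight (infinite prior degrees of freedom), so each p-value rests on the variance of all genes of like level.

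The members and the 27 gene lists were chosen with earlier results of these data known. Of 261 list entries 261 matched a name in the tables, 9 through an older symbol from RefSeq. Among them is Col26a1, listed as Emid2, which the name rule does not take. Named chains are those called or with at least 5 TPM in any library. Named list genes are up to 4 per list, by adjusted p and then by level; others (Serpinh1, P4hb, Ppib, Dcn, Lox, Lamb2, Lamc1, Nid1, Msr1, Colec11, the C1q genes and the marker genes) were chosen after their values were seen. Alternatives were no filter, a 5 TPM filter, a pseudocount of 0.1, FPKM, quantile normalization, median-ratio scaling, cyclic loess, the title start as a block, genes on a single row and leaving out each library; limma without a mean trend was added after seeing the data. The correlation across genes of the deviations of same-start libraries was -0.01, the same for both starts since each group has 2 libraries. It cannot show whether same-start libraries share mice or a batch. Tables and plots were made with matplotlib 3.10.9, NumPy 2.4.6 and pandas 2.3.3 in Python 3.11.15.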

Additional observations from a re-analysis of the deposited data

Results flagged for a closer look

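For 3 chains the difference between YFP+ and YFP- had opposite signs between the M and the FM libraries, with 1 library of each group per title start, and this contrast between starts was not tested. For Col20a1 the log2(TPM + 1) difference, YFP+ minus YFP-, was 0.74 in the M pair and -0.34 in the FM pair. For Col11a2, a fibrillar chain of cartilage, it was 0.49 and -0.29, from levels under 1 TPM in every library. For Col5a3, a type V chain, it was 0.028 and -0.87, also from levels under 1 TPM.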

How the results depend on the processing

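On the deposited values 4898 of 12251 genes and 10 of 11 chains (lower) were called. All genes called were 3129 with a pseudocount of 0.1, 2959 with a filter at 5 TPM, 353 under quantile normalization, 1412 under median-ratio scaling, 105 under cyclic loess, 1749 with the title start as a replicate block, and 879 to 8318 when 1 library was left out. Chains called lower were 19 of 39 without a filter, 3 of 3 with a filter at 5 TPM, 0 under quantile normalization, 2 under median-ratio scaling, 0 under loess, and 4 to 10 when 1 library was left out; chains called higher were 0 except 1 (Col20a1) under quantile normalization and 1 under median-ratio scaling. With the replicate block 7 chains were called lower, and Col4a1 (limma adjusted p = 0.0886), Col4a2 (0.0962) and Col27a1 (0.128) no longer passed. The labels give no link between the libraries of a block besides the title start. The median change of tested chains (-2.02) was -3.67 with a pseudocount of 0.1, -0.26 without a filter, -3.69 with a filter at 5 TPM, -0.25, -0.81 and -0.44 under quantile normalization, median-ratio scaling and loess; the filters change which chains are tested. The difference of basement membrane and fibrillar medians (-0.63) ranged from -1.38 to 0.14 with 1 library left out, and turned without YFP- M. Without a mean trend 8 chains were called, and Col14a1 and Col6a3 (both 0.107) were not. For the 10 called chains, 85 of 133 values under alternatives kept direction and call and 48 kept direction alone; the cause was not tested. Coverage at 1 TPM was lowest in YFP- FM (1.12), so a given low TPM rests on the least coverage there. Coverage of the chains themselves followed their levels. For Col1a2 it was 0.937 and 0.317 in YFP+ M and FM against 11.5 and 11.9 in YFP- M and FM. For Col20a1 it was 4.57 and 1.25 against 2.41 and 1.14 in the same order.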

Other observations

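The summed basement membrane level was a near constant share of the summed general endothelial level. It came to 5.99% in YFP+ M, 6.40% in YFP- M, 5.91% in YFP+ FM and 5.85% in YFP- FM, a spread of 1.09-fold. The 2 lists share no gene. Cdh5, an endothelial cadherin, was counted in the Kupffer cell list instead. Its 121.6, 56.4, 62.3 and 144.4 TPM in YFP+ M, YFP- M, YFP+ FM and YFP- FM do not follow the endothelial sum. In both YFP+ libraries Cdh5 alone stood above the general endothelial sum (118 TPM in YFP+ M and 51.5 TPM in YFP+ FM). Counting Cdh5 there would lower the share mainly in YFP+. The steady share and its rank among the lists thus hold only for the list without Cdh5. This ratio was chosen after the values were seen, as the steadiest over 13 cell type lists. The next were the oligodendrocyte lineage list, 1.92-fold from lowest to highest library, and the choroid plexus list, 2.14-fold. Against brain endothelium genes the spread was 2.81-fold, against liver sinusoidal endothelium genes 6.92-fold, against microglia genes 7.60-fold and against Kupffer cell genes 161.5-fold. Over 4 libraries this is a description and was not tested.

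The fibrillar level did not follow the endothelial list as closely. It was 2.46%, 0.9997%, 3.93% and 2.96% of the general endothelial sum in YFP+ M, YFP- M, YFP+ FM and YFP- FM, a spread of 3.93-fold. Against the pericyte and smooth muscle list it was 15.4%, 10.7%, 11.9% and 21.3%, and against the fibroblast list 75.5%, 103%, 88.3% and 171.5%. The steadiest of the 13 lists for the fibrillar sum was that of 5 cholangiocyte genes (1.84-fold), led by Spp1, which macrophages also express, in 3 libraries and by Krt19 in YFP+ FM. Astrocyte, oligodendrocyte lineage and choroid plexus genes were lower in YFP+ as well, with 6 of 7, 3 of 5 and 6 of 6 tested members called, of which 3, 2 and 4 were under 1 TPM in both YFP+ libraries. Of 7 hepatocyte genes 1 was called lower, and 1 of 2 tested cholangiocyte genes. The counts of lower calls in these 5 lists stand beside 39.5% of all tested genes. Of 10 Kupffer cell genes 4 were called higher, where 0.522% of all tested genes were. Under quantile normalization, median-ratio scaling and loess 0, 5 and 0 of these Kupffer cell genes were called higher. Of all tested genes 1.21%, 5.62% and 0.531% were called higher in the same order.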
